A study of Homo sapiens with 2 samples.

Results

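A set of 28 genes of cholesterol synthesis, sterol sensing and sterol transport was followed by RNA sequencing of poly(A) RNA from SUM-159, an established cell line of human triple-negative breast carcinoma. The PD-L1L2-SE deficient cells, in which the super-enhancer tied to PD-L1 and PD-L2 was targeted, gave 1 library. The sgVector cells, which carried the vector control, gave the other. The 28 genes were chosen by symbol for their place in the pathway, with earlier results of these data known, and each was found once among 60839 gene rows. All 28 had a mean of at least 1 RPKM (the reads of a gene divided by its length in kilobases and scaled to 1000000 assigned reads) over both libraries, as had 10576 protein-coding genes in all. By pathway step they comprised 5 genes from acetyl-CoA through mevalonate to isopentenyl diphosphate, 4 from isoprenoids to squalene and 9 from lanosterol to cholesterol. Another 5 were of sterol sensing and SREBP control and 5 of transport and efflux. The sources used here do not say whether the deficient cells were 1 clone or a pool. With 1 library per group no difference has a replicate check and no test was made, and in bulk RNA fewer cells of a type and less RNA per cell cannot be told apart.

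Cells build cholesterol from acetyl-CoA through mevalonate, isoprenoid diphosphates, squalene and lanosterol. Most enzymes of this route are transcribed under SREBP factors, which the escort protein SCAP carries out of the endoplasmic reticulum when sterols are low and which INSIG proteins hold back when sterols are high. NPC proteins move sterol out of lysosomes, STARD4 carries it between membranes, and ABC transporters export it, the last of these under the oxysterol-sensing LXR receptors.

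The deficient library held 16381546 reads on genes and the sgVector library 16206675, of which 29535 and 30426 lay on the 28 genes. CD274, which encodes PD-L1, had 47 reads in the deficient library against 477 in the sgVector library, and PDCD1LG2, which encodes PD-L2, had 46 against 204. The mesenchymal markers VIM, CD44, AXL and CAV1 stood at 390, 68.8, 67.5 and 53.2 RPKM in the deficient library, against 746, 82.8, 68.0 and 49.6 RPKM in the sgVector library. The luminal and epithelial markers ESR1, PGR, KRT19, EPCAM and CDH1 had 0 to 6 reads in either library, GATA3 had 48 reads against 77, and the leukocyte and endothelial markers PTPRC, CD3E and CDH5 had 0 to 4. The share of mitochondrial genes was 6.50% of reads in deficient cells against 7.99% in sgVector cells.

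Promoter sequences are shown for 6 of the 28 genes. MVK, MSMO1, HSD17B7 and EBP are the synthesis genes whose ratio lay below those of all their expressed neighbours, ABCA1 had the highest log2 ratio of the 28 with a pseudocount of 0.1 RPKM, and SREBF2 was the one member whose window held an SRE-like match. Each is the 250 bases before the RefSeq gene start, 5′ to 3′ on the gene's strand, on GRCh38.p14: chr12:109573544-109573793 (plus strand) for MVK, chr4:165327419-165327668 (plus) for MSMO1, chr1:162790452-162790701 (plus) for HSD17B7, chrX:48521558-48521807 (plus) for EBP, chr9:104928156-104928405 (minus) for ABCA1 and chr22:41832855-41833104 (plus) for SREBF2. Capitals mark the 4 motifs searched on both strands, the SRE-like TCACNCCAC, the E-box CACGTG, the CCAAT box CCAAT and the GC box GGGCGG.
MVK: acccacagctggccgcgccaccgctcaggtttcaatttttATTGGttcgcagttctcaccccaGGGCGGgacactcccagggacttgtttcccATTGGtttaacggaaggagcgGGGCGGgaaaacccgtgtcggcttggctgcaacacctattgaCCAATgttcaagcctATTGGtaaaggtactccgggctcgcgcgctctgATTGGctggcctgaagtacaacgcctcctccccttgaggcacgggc
MSMO1: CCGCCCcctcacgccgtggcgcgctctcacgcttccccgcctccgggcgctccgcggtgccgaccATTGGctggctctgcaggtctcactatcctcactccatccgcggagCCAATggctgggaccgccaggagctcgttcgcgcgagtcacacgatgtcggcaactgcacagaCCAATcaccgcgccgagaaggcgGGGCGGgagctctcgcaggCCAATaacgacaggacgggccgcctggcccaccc
HSD17B7: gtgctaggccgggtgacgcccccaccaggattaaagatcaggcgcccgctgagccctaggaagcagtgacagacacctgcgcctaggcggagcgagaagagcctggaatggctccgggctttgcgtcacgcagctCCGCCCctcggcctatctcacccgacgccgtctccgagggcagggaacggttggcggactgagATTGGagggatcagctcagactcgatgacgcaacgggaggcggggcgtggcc
EBP: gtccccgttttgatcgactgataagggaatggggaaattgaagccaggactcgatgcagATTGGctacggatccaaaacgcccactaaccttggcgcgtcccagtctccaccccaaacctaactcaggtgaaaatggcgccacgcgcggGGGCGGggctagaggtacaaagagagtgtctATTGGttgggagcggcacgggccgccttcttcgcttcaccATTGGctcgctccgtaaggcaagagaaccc
ABCA1: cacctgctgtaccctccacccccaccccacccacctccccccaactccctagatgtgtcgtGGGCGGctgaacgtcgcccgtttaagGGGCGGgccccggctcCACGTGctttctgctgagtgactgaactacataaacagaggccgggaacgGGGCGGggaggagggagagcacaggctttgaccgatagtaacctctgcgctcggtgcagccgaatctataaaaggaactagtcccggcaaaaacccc
SREBF2: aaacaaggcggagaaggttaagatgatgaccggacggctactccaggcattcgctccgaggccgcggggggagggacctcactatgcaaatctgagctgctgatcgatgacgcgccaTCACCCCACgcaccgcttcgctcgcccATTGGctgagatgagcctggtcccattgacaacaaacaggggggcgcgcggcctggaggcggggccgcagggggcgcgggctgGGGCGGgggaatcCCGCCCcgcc

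The table of RefSeq promoters used here matched 24 of the 28 genes, with 31 windows in all because some genes have several starts. ACAT2, ABCG1, FDFT1 and SQLE were not matched. The CCAAT box lay in 61.3% of the 31 windows, against 32.7% of 22199 windows of protein-coding genes and 32.0% of all 35116 windows. Of the 24 genes 17 held it, from MVK at a log2 ratio of -1.19 to SC5D at 0.26. Of these SC5D, DHCR7 and NSDHL stood above 0 and the others below, with LSS at -0.003. Of the matched genes without it PMVK, INSIG2, CYP51A1, ABCA1, SREBF1 and NPC1 stood above 0 and SCAP below, at -0.06. This split was seen after the values were known and was not tested. Among the windows shown, which were chosen after values were seen, MVK held 5 CCAAT matches and MSMO1 4, against 3 in EBP, 1 in HSD17B7, 1 in SREBF2 and 0 in ABCA1. The GC box lay in 93.5% of the members' windows, against 53.7% of protein-coding windows and 42.6% of all windows. The E-box lay in 16.1% of the members' windows, against 7.37% and 6.34%, in the genes SCAP, INSIG1, ABCA1 and SC5D. The SRE-like letters lay in 3.23%, against 0.883% in each wider set. Both wider sets include windows whether or not the gene was expressed in these cells, and no share over expressed genes alone was taken. A match describes letters in this window and is not a site.

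Most of the 28 genes differed by less than 1.5-fold between the libraries. In the deposited RPKM those past that size were synthesis enzymes with lower values in the deficient cells. Ratios of (RPKM + 0.1) in the deficient over the sgVector library had a median log2 of -0.12, against -0.03 over all 10576 protein-coding genes, and 17 of 28 lay below 0, where 53.6% of all protein-coding genes did. MVK alone passed 2-fold, being lower, and 0 passed it in the higher direction, with 2.07% and 2.10% of all protein-coding genes past these limits. At 1.5-fold 4 of 28, or 14.3%, were lower (MVK, FDFT1, MSMO1 and IDI1) and 0 higher, where 8.67% of all protein-coding genes were lower and 6.92% higher. With TMM scaling 2 of 28 were lower and 1, the transporter gene ABCA1, was higher, where 6.60% and 9.07% of all protein-coding genes were. The 95% Clopper-Pearson interval of the read ratio, which covers counting error only, lay below 1 for 14 members and above 1 for 7, against 35.4% and 30.0% of all protein-coding genes. Over 13552 expressed genes of every type the background was 4.69% lower and 3.03% higher past 2-fold, 12.6% and 8.29% past 1.5-fold, and 32.6% and 25.9% by the interval.

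**Figure D1:**
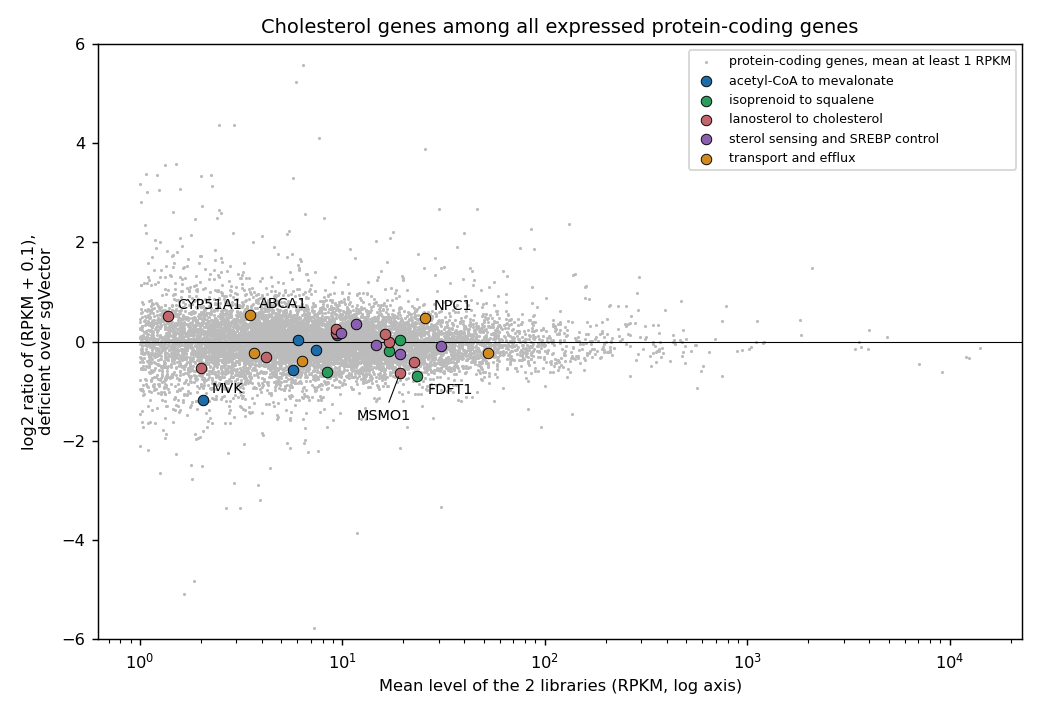
Log2 ratio of (RPKM + 0.1) in the deficient over the sgVector library (vertical axis) against the mean RPKM of both libraries (horizontal log axis) for 10576 protein-coding genes in grey and the 28 cholesterol genes in colour by pathway step. The 28 genes lie between -1.19 for MVK and 0.53 for ABCA1, inside the grey cloud.

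The summed level of the 18 synthesis enzymes was 184 RPKM in the deficient library against 216 RPKM in the sgVector library, a ratio of 0.852. The 10 control and transport genes summed to 176 RPKM in the deficient library against 179 RPKM in the sgVector library, a ratio of 0.986, and all protein-coding genes gave 0.9502. Such sums are weighted to abundant genes. The median log2 ratio was -0.17 for the 18 enzymes, -0.07 for the 10 control and transport genes and -0.03 for all protein-coding genes. By step the ratio of sums was 0.883 for acetyl-CoA through mevalonate to isopentenyl diphosphate, 0.783 for isoprenoids to squalene and 0.891 for lanosterol to cholesterol. Within the first step MVD, MVK and HMGCS1 differed by -2.25, -1.67 and -0.85 RPKM, and PMVK and ACAT2 by 0.81 and 0.13 RPKM. Of these only ACAT2 and HMGCS1 act before mevalonate. FDFT1, MSMO1 and EBP had the largest single differences among the enzymes, -11.2, -8.46 and -6.33 RPKM.

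The enzymes from acetyl-CoA through mevalonate to isopentenyl diphosphate differed from one another. MVK, the kinase that phosphorylates mevalonate, had 1.21 RPKM from 128 reads in the deficient library against 2.88 RPKM from 302 reads in the sgVector library. It was 2.38-fold lower (95% interval 1.93 to 2.96) and was the lowest of the 28 genes in the deficient library, where it ranked 25 of 28 in the sgVector library. Its log2 ratio of (RPKM + 0.1) was -1.19, and 1.22% of protein-coding genes had a lower ratio. With a pseudocount of 1 RPKM it was -0.81, short of 2-fold.

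MVK lies on chromosome 12 from 110011060 to 110035922 on the plus strand in the hg19 coordinates of the file. Its start faces that of MMAB, a cobalamin adenosyltransferase gene on the minus strand from 109991542 to 110011679, and 4.72% of the exon length of MVK overlaps MMAB. MMAB had 182 reads in the deficient library against 275 in the sgVector library and was 1.53-fold lower (1.26 to 1.85). GLTP, the nearest expressed protein-coding gene on the other side, stood at -0.29 on the log2 scale, from 521 reads in the deficient library against 629.

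MVD, the decarboxylase that makes isopentenyl diphosphate, had 4.56 RPKM in the deficient library against 6.80 RPKM in the sgVector library and was 1.49-fold lower (1.30 to 1.71). HMGCS1, the cytosolic HMG-CoA synthase, had 6.98 RPKM against 7.83 RPKM, with an interval that reached equality (0.792 to 1.003 times). ACAT2, a cytosolic acetoacetyl-CoA thiolase, had 432 reads in the deficient library against 418 in the sgVector library, and PMVK, the kinase that follows MVK, 9.82 against 9.01 RPKM. Both of these intervals spanned equality. Exons of other genes cover 52.3% of the length of ACAT2, so its reads are uncertain.

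From isoprenoids to squalene 2 of 4 genes were at least 1.5-fold lower, against 8.67% of all protein-coding genes. FDFT1, squalene synthase, which commits the route to sterols, had 17.8 RPKM from 1515 reads in the deficient library against 28.98 RPKM from 2443 reads in the sgVector library. It was 1.63-fold lower (1.53 to 1.74), and its interval lay wholly past 1.5-fold. IDI1, the isomerase of isopentenyl diphosphate, had 6.58 RPKM against 10.2 RPKM and was 1.55-fold lower (1.37 to 1.74). The log2 ratio of IDI1 was short of 1.5-fold with a pseudocount of 1 RPKM (-0.56), as TPM (-0.58) and with TMM scaling (-0.55), which leaves 1 of 4. FDPS, farnesyl diphosphate synthase, had 16.0 RPKM in the deficient library against 18.1 RPKM in the sgVector library, 1.13-fold lower (1.04 to 1.24). SQLE, the epoxidase that acts on squalene, stood at 19.6 RPKM in the deficient library against 19.2 RPKM in the sgVector library, with an interval of 0.945 to 1.10 times. The gene before SQLE in the route was thus lower by counts while SQLE itself was level within counting error.

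The 9 enzymes from lanosterol to cholesterol split, with 5 log2 ratios below 0 and 4 above. MSMO1, the oxygenase that starts removal of the paired methyl groups of the sterol ring, had 15.01 RPKM from 711 reads in the deficient library against 23.5 RPKM from 1100 reads in the sgVector library. It was 1.56-fold lower (1.42 to 1.72), and short of 1.5-fold with TMM scaling (log2 -0.57). HSD17B7, the keto-reductase of the same demethylation, had 1.62 RPKM against 2.39 RPKM, 1.47-fold lower (1.17 to 1.86). NSDHL, the dehydrogenase that acts between them, had 9.85 RPKM in the deficient library against 8.78 RPKM in the sgVector library, with an interval that spanned equality (0.953 to 1.32 times). The oxygenase and the reductase were thus lower while the dehydrogenase was not.

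EBP, the isomerase of the sterol ring, had 19.5 RPKM in the deficient library against 25.9 RPKM in the sgVector library, 1.32-fold lower (1.20 to 1.46). TM7SF2, a sterol reductase, had 3.73 RPKM against 4.63 RPKM, 1.24-fold lower (1.03 to 1.501). The last steps went the other way by smaller amounts. SC5D, a sterol desaturase, had 10.1 RPKM in the deficient library against 8.44 RPKM in the sgVector library, 1.20-fold higher (1.09 to 1.32), and DHCR7, the reductase that yields cholesterol, had 17.1 against 15.5 RPKM, 1.10-fold higher (1.02 to 1.20). LSS, which closes squalene epoxide into lanosterol, had 2017 reads against 1999 and 17.0 RPKM in each library.

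CYP51A1, the demethylase of lanosterol, had 1.64 RPKM from 96 reads in the deficient library against 1.12 RPKM from 65 reads in the sgVector library, a ratio of 1.46 (1.06 to 2.03). It was the lowest of the 28 in the sgVector library, and its interval was the widest of all. Exons of other genes cover 83.2% of its length, 79.4% by ENSG00000285772 on the same strand, which had 0 reads in both libraries. The 3 pseudogenes that carry its name had 150 reads together in the deficient library against 145 in the sgVector library, more than the gene itself. The level of CYP51A1 is therefore uncertain. Pseudogenes of FDPS, HSD17B7 and IDI1 had 7, 29 and 0 reads in the deficient library against 13, 32 and 0 in the sgVector library.

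**Figure D2:**
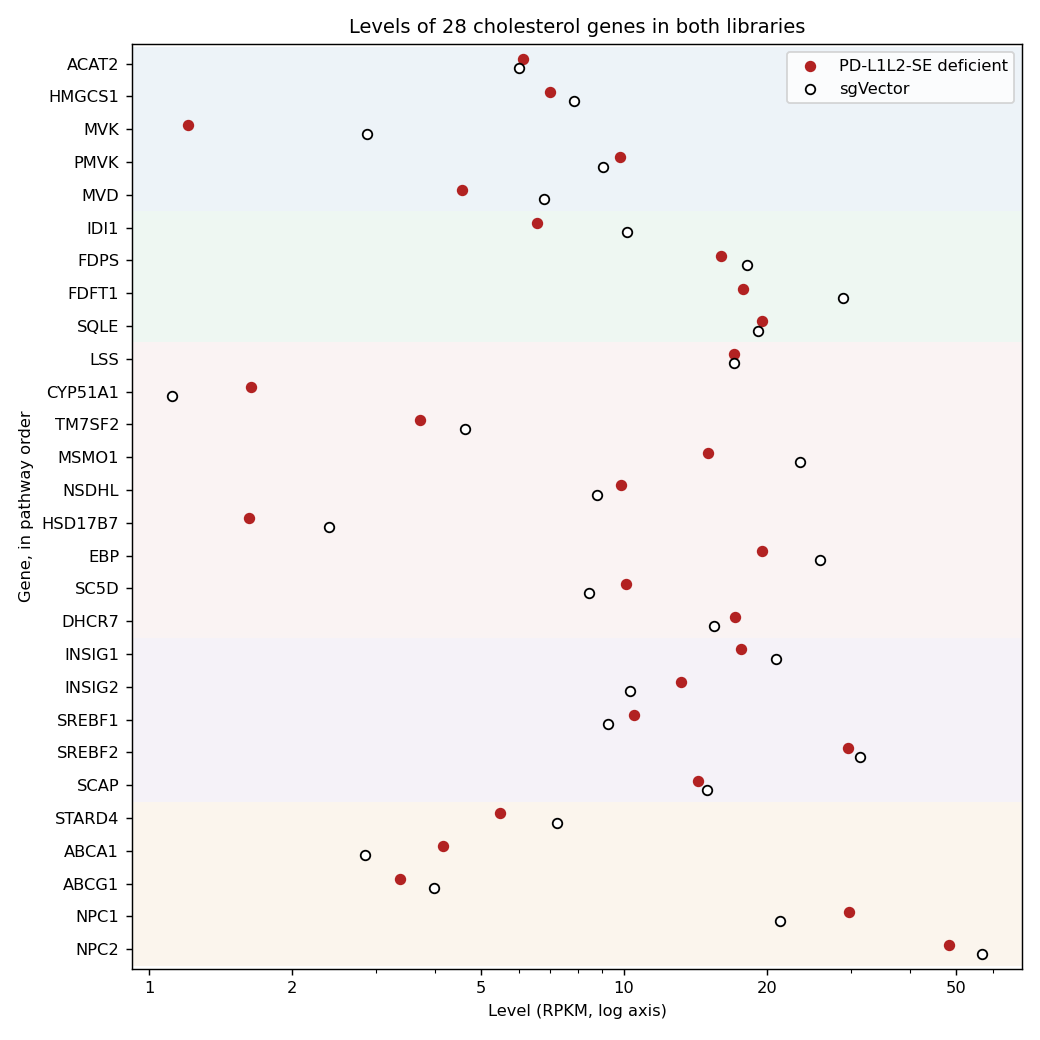
RPKM (horizontal log axis) of each of the 28 genes in pathway order, filled for the PD-L1L2-SE deficient library and open for the sgVector library, with 1 library per group and no error bars. NPC2 is highest in both, MVK is lowest in the deficient library at 1.21 RPKM and CYP51A1 in the sgVector library at 1.12 RPKM.

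The genes of sterol sensing and SREBP control stayed closer together. SREBF2, the SREBP gene most tied to sterol synthesis, had 29.7 RPKM from 3676 reads in the deficient library against 31.5 RPKM from 3853 reads in the sgVector library, 1.06-fold lower (1.01 to 1.11). SREBF1, tied more to fatty acid synthesis, had 10.5 RPKM against 9.27 RPKM, 1.13-fold higher (1.05 to 1.23). SCAP had 14.3 RPKM in the deficient library against 14.9 RPKM in the sgVector library, with an interval that spanned equality (0.891 to 1.03 times). The 2 INSIG genes pointed in opposite directions. INSIG1, itself an SREBP target, had 17.6 RPKM in the deficient library against 20.9 RPKM in the sgVector library and was 1.18-fold lower (1.09 to 1.29), while INSIG2 had 13.2 against 10.3 RPKM and was 1.28-fold higher (1.16 to 1.42). With a correction for GC content and length the median of this step was 0.082, against -0.06 without it, and SCAP changed sign, as it did with TMM scaling. The log2 ratio of SREBF2 was -0.08, and it was -0.008 with TMM scaling and -0.001 with the correction.

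Of the 5 transport and efflux genes, NPC1 and ABCA1 were higher in the deficient library and the other 3 lower. NPC1, the lysosomal membrane protein that exports cholesterol, had 29.8 RPKM from 4934 reads in the deficient library against 21.3 RPKM from 3484 reads in the sgVector library, 1.40-fold higher (1.34 to 1.46), and ranked 2 of the 28 against 6. ABCA1, which loads cholesterol onto apolipoproteins, had 4.15 RPKM from 772 reads against 2.85 RPKM from 524 reads, 1.46-fold higher (1.30 to 1.63), and passed 1.5-fold with TMM scaling (log2 0.60). Among the 28 genes CYP51A1, ABCA1 and NPC1 had the highest ratios, at 0.51, 0.53 and 0.48 on the log2 scale, and their order changed with the pseudocount and with the GC and length correction. NPC2, the soluble lysosomal partner of NPC1, pointed the other way. It had 48.3 RPKM in the deficient library against 56.7 RPKM in the sgVector library, 1.17-fold lower (1.11 to 1.24). ABCG1, the other exporter under LXR control, had 3.38 against 3.97 RPKM, 1.17-fold lower (1.01 to 1.36), and STARD4 had 5.48 against 7.22 RPKM, 1.32-fold lower (1.17 to 1.48). Thus the NPC pair and the ABC pair were each split in direction.

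**Figure D3:**
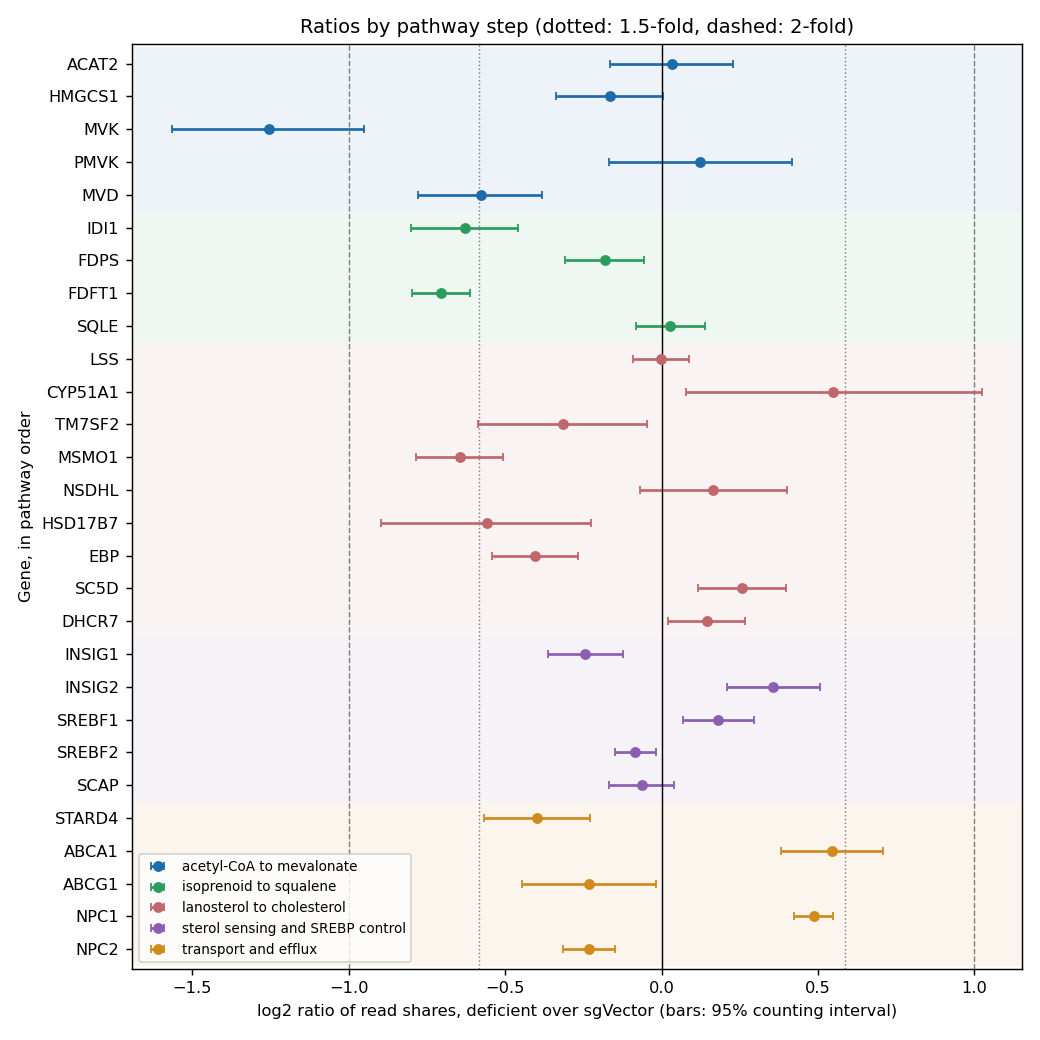
Log2 ratio of read shares, deficient over sgVector, for the 28 genes in pathway order, with bars for the 95% counting interval of 1 library per group, dotted lines at 1.5-fold and dashed lines at 2-fold. MVK alone lies past the dashed line, at 2.38-fold lower, and the interval of FDFT1 lies wholly past the dotted line.

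Ratios also differed by place in the genome, and each gene was set beside the 10 nearest expressed protein-coding genes on each side. The median log2 ratio of these neighbours ran from -0.31 around MVK to 0.54 around SQLE. For 4 of 28 genes the value lay below all 20 neighbours, as it did for 4.77% of all protein-coding genes set beside their own neighbours. MSMO1 stood at -0.64 where its neighbours had a median of 0.12 and a lowest value of -0.25, with KLHL2 and CPE beside it at 0.25 and 0.11. HSD17B7 stood at -0.53 where its neighbours had a median of 0.17 and a lowest value of -0.25. MVK stood at -1.19 where 18 of 20 neighbours were below 0 and the lowest was -1.10. EBP stood at -0.40, just below the lowest neighbour at -0.38. FDFT1, at -0.70, lay below 19 of 20 neighbours, whose median was 0.02. Beside it NEIL2 stood at -0.63, from 123 reads in the deficient library against 191, and CTSB at 0.05, from 9936 against 9520.

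Some other members stood on the same side of 0 as their neighbourhood and some did not. IDI1 stood at -0.62 where 13 of 14 neighbours were below 0, with WDR37 at -0.71 and GTPBP4 at -0.52 beside it. INSIG2 stood at 0.35 and its neighbours at a median of 0.33. SQLE stood at 0.03, below the median of 0.54 around it. STARD4 stood at -0.39 and HMGCS1 at -0.16, where the neighbours had medians of 0.11 and 0.19. Of the 28, 0 lay above all their neighbours, as 4.73% of protein-coding genes did, and the largest excess over a neighbourhood median was 0.47, for CYP51A1. In all 6 members lay at least 0.5 below the median of their neighbours and 0 at least 0.5 above it, against 8.20% and 8.14% of protein-coding genes. The part of the neighbourhood in each member's value was not tested.

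**Figure D4:**
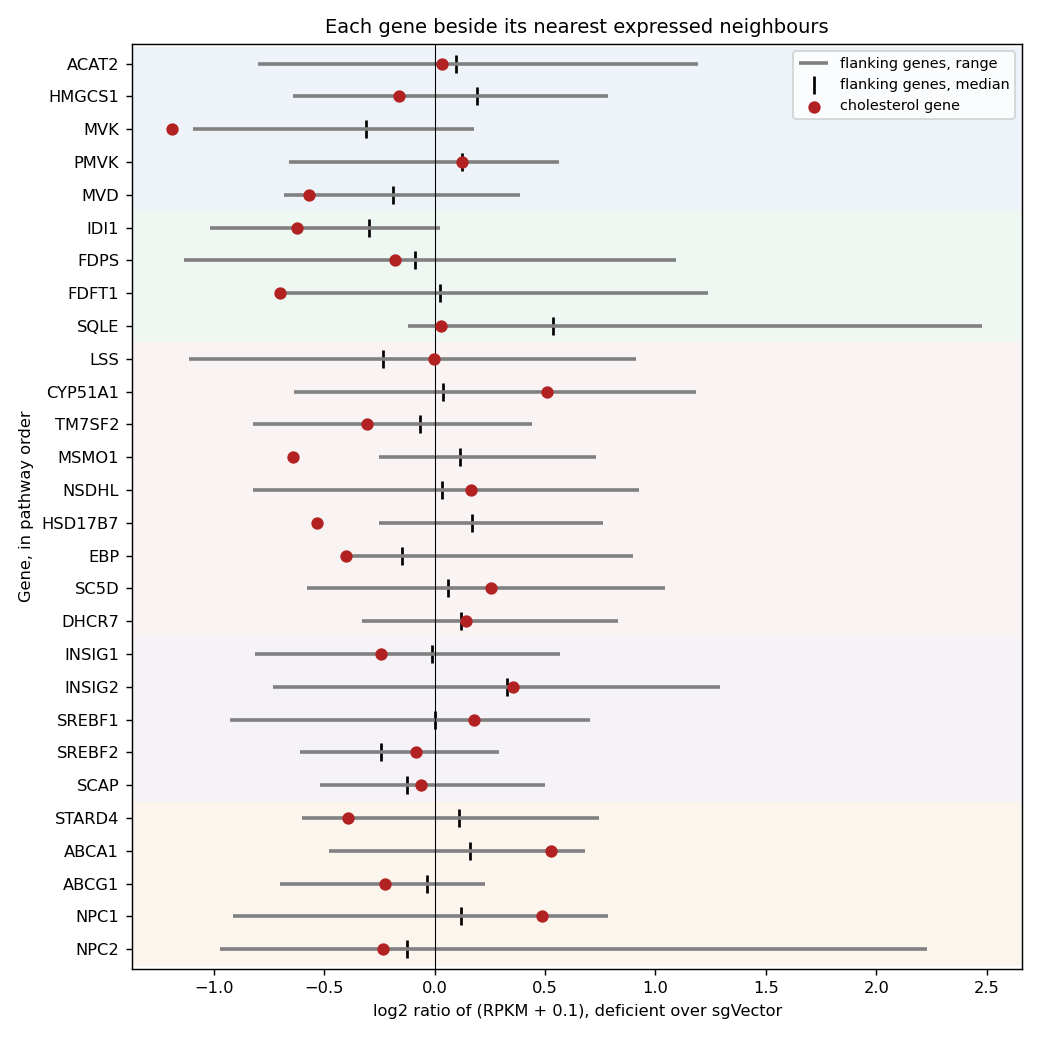
Log2 ratio of (RPKM + 0.1), deficient over sgVector, of each of the 28 genes (red points) beside the range (grey bars) and median (black ticks) of the nearest expressed protein-coding genes, up to 10 on each side. MVK, MSMO1, HSD17B7 and EBP lie left of their bars, by a wide margin for MSMO1 and HSD17B7.

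Log2 ratios of all protein-coding genes followed base composition, with a median of 0.14 in the class of lowest GC content and -0.20 in the class of highest GC content out of 5 equal classes. The 28 genes spread over these classes, from 34.2% GC for STARD4 to 64.2% for TM7SF2. The genes at least 1.5-fold lower had 58.2% (MVK), 48.6% (FDFT1), 41.1% (IDI1) and 38.1% (MSMO1). After a correction on GC content and length they stood at -1.08, -0.69, -0.73 and -0.75, and the median of the 28 was -0.02, against -0.03 for all protein-coding genes. HSD17B7 and STARD4 passed 1.5-fold lower after this correction, at -0.64 and -0.59. Other values shrank with it, among them MVD to -0.38, EBP to -0.25, TM7SF2 to -0.07, FDPS to -0.04, INSIG2 to 0.20 and SC5D to 0.07. Some grew in size, among them HMGCS1 to -0.30, DHCR7 to 0.29 and SREBF1 to 0.31.

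Related gene lists outside the 28 gave the setting. Fatty acid synthesis genes, many of them SREBP targets as well, had a median log2 ratio of 0.11 over 17 expressed genes, with 12 above 0 and 1 past 1.5-fold in each direction. GPAM, which starts glycerolipid synthesis, and the acyl-CoA synthetase genes ACSL1 and ACSL4 stood at 0.79, 0.53 and 0.48, and PNPLA3, ELOVL1 and ACSS2 at -0.72, -0.49 and -0.15. The isoprenoid branches to prenylation, dolichol and ubiquinone had a median of -0.21 over 14 genes, with 8 below 0 and 0 past 1.5-fold. ZMPSTE24, PGGT1B and NUS1 were highest at 0.43, 0.42 and 0.25, and RCE1, PDSS1 and RABGGTB lowest at -0.50, -0.48 and -0.42.

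Genes that process SREBP or degrade sterol-regulated proteins had a median of 0.01 over 13 genes, with 2 at least 1.5-fold higher and 0 lower. Both were ubiquitin ligase genes, MYLIP at 0.66 and RNF139 at 0.61, with the SREBP protease gene MBTPS2 next at 0.53. UFD1, ERLIN1 and MBTPS1 were lowest at -0.35, -0.16 and -0.13. The oxysterol and LXR list had a median of 0.19 over 8 expressed genes of 11, led by the cholesterol hydroxylase gene CH25H at 0.59, RXRA at 0.56 and NR1H3, an LXR gene, at 0.34. RXRB and NR1H2, the other LXR gene, stood at -0.15 and -0.06. For CH25H 85 reads stood against 55.

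Other genes of sterol transport and uptake had a median of 0.10 over 16 expressed genes of 18, with 1 at least 1.5-fold higher. This was GRAMD1A, which moves plasma membrane cholesterol to the endoplasmic reticulum, at 58.7 RPKM in the deficient library against 34.1 RPKM in the sgVector library and a log2 ratio of 0.78. STARD5 and the cholesterol esterifying enzyme gene SOAT1 followed at 0.57 and 0.51. SCARB1, a lipoprotein receptor gene, was lowest at -0.48, with OSBPL2 and LRP1 at -0.32 each. Thus 1 of these 6 lists of related genes had its median below that of all protein-coding genes, the isoprenoid branches, and so did 4 of the 5 steps of the cholesterol genes. With the GC and length correction the sterol sensing step stood at 0.082, above the median of -0.03 for all protein-coding genes.

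**Figure D5:**
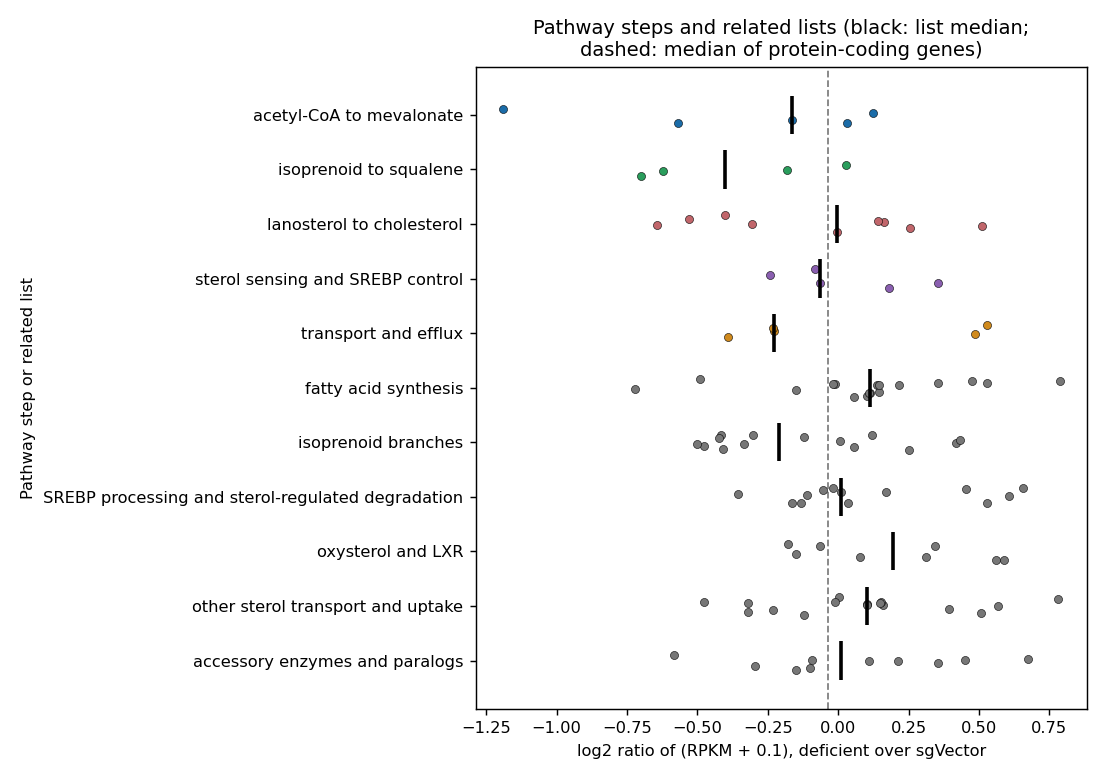
Log2 ratio of (RPKM + 0.1), deficient over sgVector, of expressed genes in the 5 pathway steps (coloured) and 6 related lists (grey), with black bars for the list medians and a dashed line for the median of all protein-coding genes at -0.03. Isoprenoids to squalene have the lowest median, -0.40, and oxysterol and LXR genes the highest, 0.19.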

How the data were processed

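The libraries were 1 of PD-L1L2-SE deficient and 1 of sgVector SUM-159 cells. The submitters' processing notes name Subread, featureCounts 1.6.4 and the builds GRCh37 and hg19. For annotation release and strand setting the sources used here give nothing. The deposited table holds RPKM from the authors beside exon positions and length for each gene, per the file headers.

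Multiplied by length, each column summed to 1000000, and 100% of values were whole reads to within 0.001 of a read. These reads served for the read counts, folds and intervals in the text and for the mitochondrial share. They also served for the TMM, upper quartile and mitochondrial settings named below. Of 60880 rows, 56858 matched GENCODE release 29 by gene ID, the source of gene type and of GC content (taken on each gene's longest transcript), and 41 pseudoautosomal copies on Y were left out. All 28 members had a GC content.

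Genes were compared by the log2 ratio of (RPKM + 0.1) where both libraries averaged 1 RPKM or more. This ratio understates changes of low genes. Folds in the text are ratios of read shares with 95% Clopper-Pearson intervals, which cover counting error only, since amplified reads that carry no molecular identifier are not independent molecules. Strand being unstated, reads on overlapping and antisense genes are uncertain. Members and lists were chosen with earlier results of these data known. The text names all members, the 3 highest and 3 lowest expressed genes of each related list, neighbours of members past 1.5-fold, and CD274 and PDCD1LG2, except that some genes are not reported here. The 6 promoters shown were chosen after values were seen, and the shares of all protein-coding genes that differ from their own neighbours were added then. PECAM1, a planned endothelial marker, was not matched by symbol. Alternatives were pseudocounts of 1 and 0.01, centring, TPM, TMM (trimming 30% and 5%), scaling to the upper quartile, leaving out mitochondrial genes, floors of 5, 0.5 and none, intervals wholly past the fold and a lowess correction (share 0.3) on GC content and length. Steps were tested on simulated data. Software was statsmodels 0.14.6, scipy 1.17.1, pandas 2.3.3, numpy 2.4.6 and matplotlib 3.10.9 under Python 3.11.15.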

Additional observations from a re-analysis of the deposited data

How the results depend on the processing

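Of 224 log2 ratios of the 28 genes under 8 scaling, pseudocount and correction settings, 210 stayed within the counting interval, and 11 of the other 14 came with the GC and length correction. LSS and SCAP changed sign under some setting, from main values of -0.003 and -0.06. The 1 gene at least 2-fold lower, MVK, became 0 genes with the whole interval past 2-fold, with 1 RPKM as pseudocount and with 5 RPKM as floor, which drops it. The 4 genes at least 1.5-fold lower became 2 with TMM scaling and 2 with the whole interval past 1.5-fold, and 1 gene (ABCA1) was then 1.5-fold higher with TMM. The median of the sterol sensing step was 0.082 with the GC and length correction. The cause was not tested for these beyond what the settings do by construction. The share of protein-coding genes at least 2-fold lower was 1.03% with a pseudocount of 1, 1.14% with a floor of 5, 3.21% with no floor and 4.69% over all gene types, and at least 2-fold higher 1.31% with a floor of 5 and 1.23% at pseudocount 1. The median of all 28 genes ranged from -0.15 to -0.02. No paired analysis was possible because there was 1 library per group. The value of CYP51A1 rests on few reads, 65 in the sgVector library, and exons of other genes cover 83.2% of its length.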

Other observations

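Accessory enzymes and paralogs of the pathway had a median log2 ratio of 0.01 over 10 expressed genes of 13. LBR, a sterol reductase of the nuclear envelope that shares its reaction with TM7SF2, had 15.8 RPKM in the deficient library against 9.88 RPKM in the sgVector library and a log2 ratio of 0.68, where TM7SF2 stood at -0.31. With the GC and length correction LBR stood at 0.49 and TM7SF2 at -0.07. ACAT1, the mitochondrial thiolase paralog of ACAT2, stood at 0.45 from 737 reads against 531, and HSD17B12 at 0.35. MMAB, ERG28 and PEX2 were lowest at -0.58, -0.30 and -0.15. The paralogs IDI2 and SOAT2 had 1 and 2 reads in the deficient library against 5 and 0 in the sgVector library, where IDI1 and SOAT1 were the expressed forms. The lipoprotein receptor gene VLDLR lies on chromosome 9 from 2621834 to 2660053 in hg19 coordinates, where CD274 lies from 5450503 to 5470566. VLDLR was below the expression floor with 8 reads in the deficient library against 49 in the sgVector library. Whether its position has a part in this was not tested. VLDLR was named after its values were seen.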
